A study of Homo sapiens with 12 samples.

Results

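The CREB3 family comprises the genes CREB3, CREB3L1, CREB3L2, CREB3L3 and CREB3L4, which were found by symbol in the deposited count table. All 5 were among its 28278 genes, and all 5 were among the 17137 genes with enough reads to be tested. The cells were pancreatic alpha cells, the glucagon-secreting cells of the islet, differentiated in culture from HUES-8, a human embryonic stem cell line in wide use. In one group, 6 cultures received tunicamycin at 5 uM, and in the other, 6 cultures received the solvent DMSO. Both were treated for 48 h in stirred bioreactors of 30 mL at 40 rpm, and every sample therefore came from the same line, differentiation scheme and vessel type. Tunicamycin blocks the first step of N-glycosylation, so that proteins misfold in the endoplasmic reticulum (ER), and the study used it to model ER stress in alpha cells. Messenger RNA abundance was measured by bulk RNA sequencing in 2 batches, with numbers 1 to 3 of each group in batch 1 and numbers 4 to 6 in batch 2.

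CREB3 family proteins are transcription factors of the basic leucine zipper (bZIP) class that are made as proteins anchored in the ER membrane. When they leave for the Golgi apparatus, site-1 protease and site-2 protease cut them in turn, and the freed part enters the nucleus and binds DNA. ATF6, a sensor of the unfolded protein response, is activated by the same pair of proteases. Members of the family are best known for raising secretory capacity in professional secretory cells such as osteoblasts, chondrocytes, hepatocytes and prostate epithelium. Transcript counts show neither cleavage nor nuclear entry, so all values below are of messenger RNA.

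The samples held 20252508 to 25131093 assigned reads in the 6 tunicamycin cultures and 17523442 to 28872269 in the 6 DMSO cultures. Glucagon transcripts (GCG) averaged 56820 CPM (read counts scaled to a common library size) in tunicamycin cultures and 74634 CPM in DMSO cultures. GCG was lower with tunicamycin in 6 of 6 numbered pairs and did not pass in edgeR (adjusted p = 0.18), but did in DESeq2 (adjusted p = 0.038). All 10 alpha cell markers examined were detected in every sample. Of these, 2 fell and none rose, against 3.29% lower over all tested genes, and 3 fell with the replicate number as a block. CRYBA2 had a log2 fold change of -1.80 (edgeR adjusted p = 7.6e-05). The treatment check HSPA5, the main ER chaperone, averaged 5270 CPM in tunicamycin cultures and 845 CPM in DMSO cultures, a log2 fold change of 2.63 (edgeR adjusted p = 3.7e-07). DDIT3, the stress factor CHOP, averaged 114.8 CPM in tunicamycin cultures and 26.2 CPM in DMSO cultures. The libraries also held transcripts of other cell types. The 7 heart muscle markers summed to 7.07, 24.6 and 1065 CPM (lowest, median and highest) in tunicamycin cultures and to 6.07, 188 and 2047 CPM in DMSO cultures, and none of them passed the test. With the replicate block 1 of these 7 fell, in a fit that called 17.3% of all tested genes. The 7 markers of other islet cells summed to 1641, 2300 and 3332 CPM in tunicamycin cultures and to 1253, 1987 and 5779 CPM in DMSO cultures. Of these 7 markers 3 fell, against 3.29% of all tested genes. In bulk samples such as these, fewer cells of a type and less RNA per cell cannot be told apart. The replicates are labelled biological, but whether they came from separate differentiations was not stated, so the p-values measure the spread between these cultures.

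The promoters were read from RefSeq (build GRCh38.p14), and 6 short motifs were looked for on both strands in the 250 bases before each transcription start. The motifs were the cAMP response element (CRE, TGACGTCA), the unfolded protein response element (UPRE, TGACGTGG), the ER stress response element (ERSE), its variant ERSE-II, the C/EBP-ATF response element (CARE, TGATGNAA) and the core of the Golgi apparatus stress response element (GASE, ACGTGGC). None of these strings contains another, although the UPRE, ERSE and GASE strings can share bases. The CREB3L2 promoter, shown because CREB3L2 had the most reads of the family and rose with tunicamycin, holds a CRE that begins 179 bases upstream of the start. The CREB3L1 promoter, shown because CREB3L1 had the largest fold change, holds none of the 6 motifs. The first 200 bases of its window are printed, which lie in no annotated exon, and its RefSeq start lies inside the span that GENCODE gives the gene. The printed CREB3L2 window lies upstream of the annotated gene, in no exon. The CREB3 promoter holds a GASE core that begins 166 bases upstream, and it is shown as a short window because the bases around it are annotated as exon. Capitals mark the motif, and sequences run 5′ to 3′ on the strand of the gene.
CREB3L2, chr7:138002087-138002336, minus strand: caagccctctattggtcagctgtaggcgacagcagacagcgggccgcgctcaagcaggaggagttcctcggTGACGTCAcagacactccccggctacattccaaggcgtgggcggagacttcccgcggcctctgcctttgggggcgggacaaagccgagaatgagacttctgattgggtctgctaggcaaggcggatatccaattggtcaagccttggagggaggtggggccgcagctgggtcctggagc
CREB3L1, chr11:46294909-46295108, plus strand: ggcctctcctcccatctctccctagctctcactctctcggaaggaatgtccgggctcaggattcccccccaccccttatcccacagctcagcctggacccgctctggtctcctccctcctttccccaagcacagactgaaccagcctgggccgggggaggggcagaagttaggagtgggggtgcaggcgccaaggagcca
CREB3, chr9:35732488-35732517, plus strand: atagcccctgggACGTGGCgctgcacccaa

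Of 35116 RefSeq promoter windows of the same 250 bases, 1.65% held the CRE and 2.78% held the GASE core. The other shares were 0.612% for the UPRE, 0.074% for the ERSE, 0.0513% for ERSE-II and 3.14% for the CARE. CREB3L3, CREB3L4 and a second, downstream start of CREB3L2 held none of the 6 motifs in their windows. Of the 250 bases, 198 are annotated as exon in the CREB3L4 window and 30 in the CREB3L3 window. A match is a string of letters and not a shown binding site, and a window without a match says nothing of which factors act there.

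CREB3L1, CREB3L2 and CREB3L4 rose with tunicamycin, which is 3 of the 5 members, and none fell. Of all 17137 genes tested, 7.84% passed the same threshold (edgeR's quasi-likelihood test, Benjamini-Hochberg adjusted p below 0.05), with 4.56% higher and 3.29% lower. The 3 risen members had higher values in 6 of 6 numbered pairs, and their groups did not overlap, a separation found in 3.77% of tested genes, or 2.47% with tunicamycin higher. CREB3 and CREB3L3 did not pass the test, with estimates of opposite sign. The median log2 fold change was 0.74 over the 5 members and -0.01 over all tested genes.

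CREB3L1, also called OASIS, is known in mice as the factor that osteoblasts use to raise collagen production in response to ER stress. Its gene spans bases 46277661 to 46321422 on chromosome 11, plus strand (GRCh38, GENCODE annotation). CREB3L1 ranged over 19.7, 31.7 and 44.6 CPM (lowest, median and highest) in tunicamycin cultures, against 8.48, 11.6 and 18.6 CPM in DMSO cultures. The lowest tunicamycin culture, number 3, lay just above the highest DMSO culture, number 1. The means were 33.0 ± 9.22 CPM in tunicamycin cultures and 12.7 ± 3.71 CPM in DMSO cultures (SD, n = 6 each). That is a 2.53-fold difference, or a log2 fold change of 1.34 ± 0.20 (SE), with a 95% interval of 0.88 to 1.80 (edgeR adjusted p = 0.0010). It was the largest log2 fold change of the family. Within batches the log2 fold change was 1.03 in batch 1 and 1.63 in batch 2, and the difference between batches did not pass the test (0.61 ± 0.38, SE; edgeR unadjusted p = 0.13).

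Mesenchymal cells also make CREB3L1 and its collagen targets, so their markers were summed in each culture. The 13 mesenchymal markers summed to 118, 281 and 708 CPM (lowest, median and highest) in tunicamycin cultures and to 208, 498 and 1706 CPM in DMSO cultures, and no marker was at 0 in any culture. The groups overlapped, and none of the 13 markers passed the test, although the median log2 fold change of the list was -1.20. With the replicate block 9 of the 13 fell, in a fit that called 17.3% of all tested genes. The DMSO culture with the highest marker sum, number 1, also had the highest CREB3L1 value of its group. With the mean level of these markers as a further term in the edgeR model, the log2 fold change of CREB3L1 was 1.53 (adjusted p = 0.0017).

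CREB3L2, also called BBF2H7, is known in mice as the factor by which chondrocytes expand their secretory pathway to export cartilage matrix. Its gene spans bases 137874979 to 138002067 on chromosome 7, minus strand. CREB3L2 ranged over 162.9, 169.4 and 183.8 CPM in tunicamycin cultures, against 57.5, 88.1 and 102.6 CPM in DMSO cultures. The tunicamycin cultures lay close together, all above the DMSO cultures, of which number 5 was the lowest. The means were 170.9 ± 7.39 CPM in tunicamycin cultures and 86.5 ± 16.4 CPM in DMSO cultures (SD, n = 6 each), a 1.98-fold difference. The log2 fold change was 0.98 ± 0.12 (SE), with a 95% interval of 0.70 to 1.26 (edgeR adjusted p = 0.00022). It was 0.90 in batch 1 and 1.06 in batch 2.

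CREB3L4, also called AIbZIP, was first described as an androgen-induced gene of human prostate epithelium. Its gene spans bases 153967534 to 153974363 on chromosome 1, plus strand. CREB3L4 ranged over 15.9, 19.2 and 23.2 CPM in tunicamycin cultures, against 8.29, 11.8 and 15.7 CPM in DMSO cultures. The lowest tunicamycin culture, number 2, lay just above the highest DMSO culture, number 3. The means were 19.8 ± 2.73 CPM in tunicamycin cultures and 11.8 ± 2.46 CPM in DMSO cultures (SD, n = 6 each), a 1.67-fold difference. The log2 fold change was 0.74 ± 0.15 (SE), with a 95% interval of 0.40 to 1.08 (edgeR adjusted p = 0.0075). It was 0.59 in batch 1 and 0.88 in batch 2.

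The calls of the 3 members held in all 12 fits that each left out 1 culture. None of them passed in batch 1 alone, where edgeR called 57 genes in all, while all 3 passed in batch 2 alone. Leaving out both cultures of numbers 1 and 5, whose DMSO cultures held the most heart muscle or mesenchymal transcripts, ended the call of CREB3L4 (log2 fold change 0.70, edgeR adjusted p = 0.13) and not those of CREB3L1 and CREB3L2. With the heart muscle markers as a further term all 3 passed, at edgeR adjusted p of 0.0011 for CREB3L1, 0.00035 for CREB3L2 and 0.011 for CREB3L4. Both of these fits were added after the data had been seen.

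**Figure D1:**
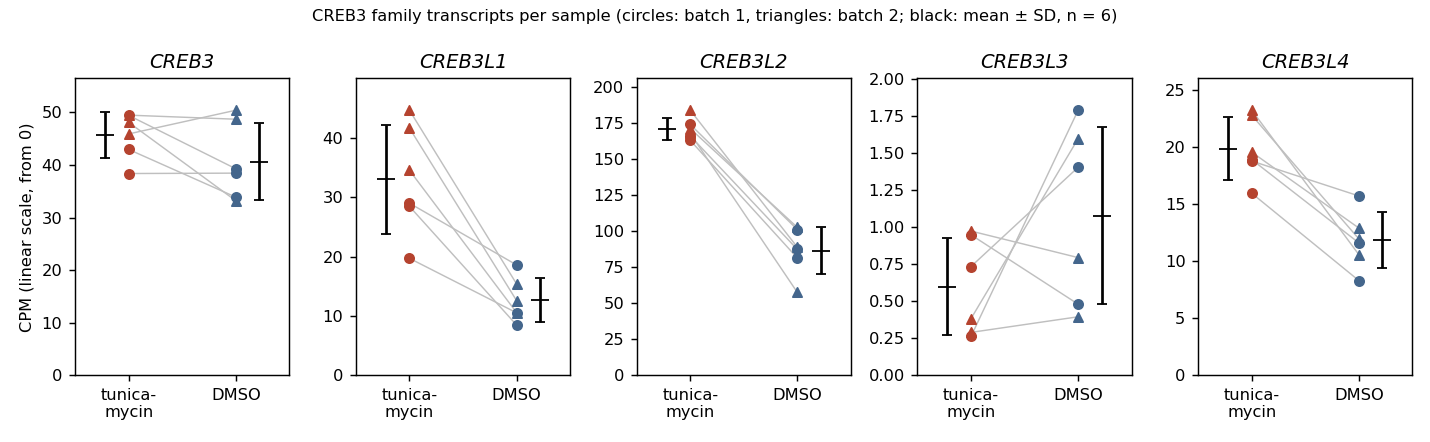
CPM of each CREB3 family gene in each culture on a linear axis, with tunicamycin left and DMSO right in each panel. Grey lines join cultures of the same number, circles are batch 1, triangles are batch 2, and black bars are the mean ± SD (n = 6). CREB3L1, CREB3L2 and CREB3L4 show 2 groups that do not overlap, while CREB3 and CREB3L3 overlap.

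CREB3, also called Luman, is the founding member and binds the host cell factor HCFC1. Its gene spans bases 35732335 to 35737004 on chromosome 9, plus strand. CREB3 ranged over 38.4, 47.0 and 49.4 CPM in tunicamycin cultures, against 33.2, 38.8 and 50.4 CPM in DMSO cultures. The groups overlapped, and the highest value of all was in DMSO culture 5. CREB3 was higher with tunicamycin in 4 of 6 pairs and averaged 45.7 ± 4.36 CPM in tunicamycin cultures and 40.6 ± 7.31 CPM in DMSO cultures (SD, n = 6 each). The log2 fold change was 0.17 ± 0.11 (SE; edgeR adjusted p = 0.40), and its 95% interval of -0.08 to 0.42 lay below the estimates of CREB3L1, CREB3L2 and CREB3L4. It overlapped the interval of CREB3L4, 0.40 to 1.08.

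CREB3L3, also called CREBH, is a factor of liver and intestine that acts in lipid metabolism and the acute phase response. Its gene spans bases 4153601 to 4173054 on chromosome 19, plus strand. CREB3L3 was near the limit of detection, with 78 reads over the 6 tunicamycin cultures and 147 reads over the 6 DMSO cultures. It ranged over 0.264, 0.560 and 0.9752 CPM in tunicamycin cultures, against 0.396, 1.10 and 1.79 CPM in DMSO cultures. The groups overlapped, and CREB3L3 was lower with tunicamycin in 4 of 6 pairs. The log2 fold change was -0.83 ± 0.48 (SE; edgeR adjusted p = 0.34). Its 95% interval ran from -1.92 to 0.25.

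Markers of liver and gut epithelium were present beside CREB3L3. The 11 markers summed to 734, 884 and 958 CPM (lowest, median and highest) in tunicamycin cultures and to 990, 1195 and 1451 CPM in DMSO cultures, so these groups did not overlap. Of the 11 markers, 8 fell and none rose, against 3.29% lower and 4.56% higher over all tested genes. With the replicate block 10 of the 11 fell, in a fit that called 17.3% of all tested genes. Among the fallen was ALB, the albumin gene, which averaged 2.34 CPM in tunicamycin cultures and 9.89 CPM in DMSO cultures (log2 fold change -2.10, edgeR adjusted p = 0.0017). APOA4 and FABP1 also fell, but with 14 and 4 reads over the tunicamycin cultures they were tested only through the DMSO cultures. At most 2 of the 11 markers were at 0 in a tunicamycin culture and none in a DMSO culture. ALB, AFP, APOA4 and FABP1 averaged 9.89, 33.1, 1.42 and 0.758 CPM in DMSO cultures, so other markers made up most of the DMSO sums. Whether the markers came from liver or gut cells, and the part of such cells in the CREB3L3 values, was not tested.

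**Figure D2:**
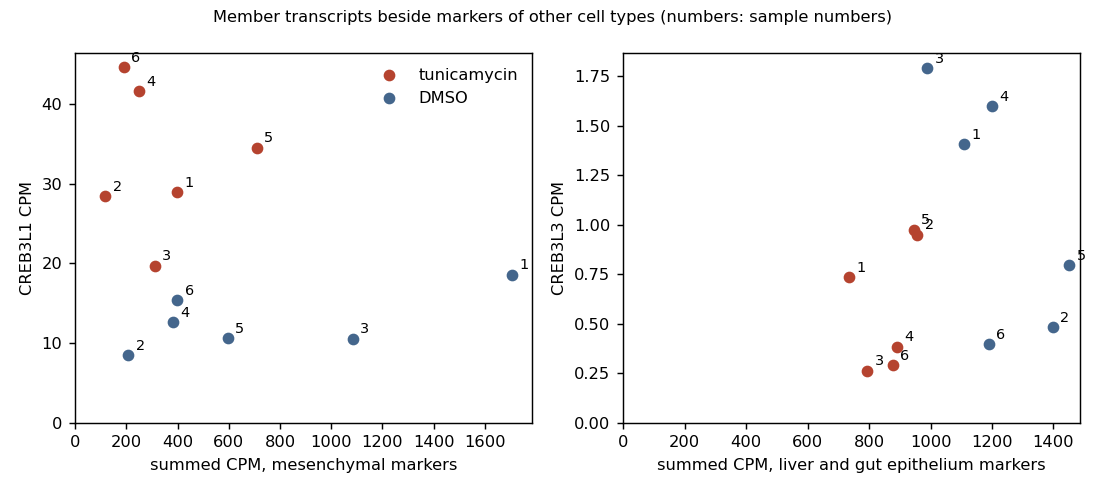
CPM of CREB3L1 against the summed CPM of 13 mesenchymal markers (left), and of CREB3L3 against that of 11 liver and gut markers (right), for the 6 tunicamycin and 6 DMSO cultures, numbered by sample. CREB3L1 separates the groups on the vertical axis while the mesenchymal sums overlap, and the liver and gut sums separate the groups while CREB3L3 overlaps.

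Reads per gene also depend on length, so levels were compared between members as CPM per kb of exon. The length was that of all annotated exons of a gene together. The transcripts present in these cultures may be shorter, so the order of members depends on this choice. On that scale CREB3 was the highest member, at 24.0 ± 2.29 CPM per kb in tunicamycin cultures and 21.4 ± 3.84 CPM per kb in DMSO cultures (SD, n = 6 each). CREB3L2 came next, with a level of 19.4 ± 0.841 CPM per kb in tunicamycin cultures and 9.84 ± 1.86 CPM per kb in DMSO cultures. In CPM not divided by length CREB3L2 was the highest, and its annotated exons cover 8.788 kb, against 1.903 kb for CREB3. CREB3L1 had a level of 8.17 ± 2.28 CPM per kb in tunicamycin cultures and 3.15 ± 0.920 CPM per kb in DMSO cultures. CREB3L4 had a level of 6.83 ± 0.940 CPM per kb in tunicamycin cultures and 4.07 ± 0.848 CPM per kb in DMSO cultures. CREB3L3 was lowest, at 0.224 ± 0.122 CPM per kb in tunicamycin cultures and 0.403 ± 0.223 CPM per kb in DMSO cultures.

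On the scale per kb, CREB3 lay above CREB3L2 in 6 of 6 cultures of each group, CREB3L2 lay above both CREB3L1 and CREB3L4 in all of them, and CREB3L3 was last in all of them. The margin could be small, with CREB3 at 20.2 and CREB3L2 at 19.8 CPM per kb in tunicamycin culture 2. The order of CREB3L1 and CREB3L4 was not stable, since CREB3L1 was the higher of the pair in 5 of 6 tunicamycin cultures and in 2 of 6 DMSO cultures. The ranges of their levels per kb overlapped in both groups.

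The summed level of the 5 members was 58.7 ± 5.11 CPM per kb in tunicamycin cultures, with a range of 52.5 to 64.6, and 38.8 ± 3.51 CPM per kb in DMSO cultures, with a range of 35.7 to 44.9 (SD, n = 6 each). The make-up of that sum also differed between the groups. CREB3 supplied 40.9 ± 2.20% of it in tunicamycin cultures and 54.8 ± 6.34% in DMSO cultures. CREB3L2 supplied 33.3 ± 2.64% in tunicamycin cultures and 25.5 ± 5.00% in DMSO cultures, and CREB3L1 supplied 13.7 ± 2.84% in tunicamycin cultures and 8.07 ± 2.08% in DMSO cultures. The share of CREB3L4 was 11.6 ± 1.09% in tunicamycin cultures and 10.6 ± 2.78% in DMSO cultures, and that of CREB3L3 was 0.388 ± 0.223% in tunicamycin cultures and 1.07 ± 0.642% in DMSO cultures. These shares are descriptions that rest on the same exon lengths and were not tested.

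**Figure D3:**
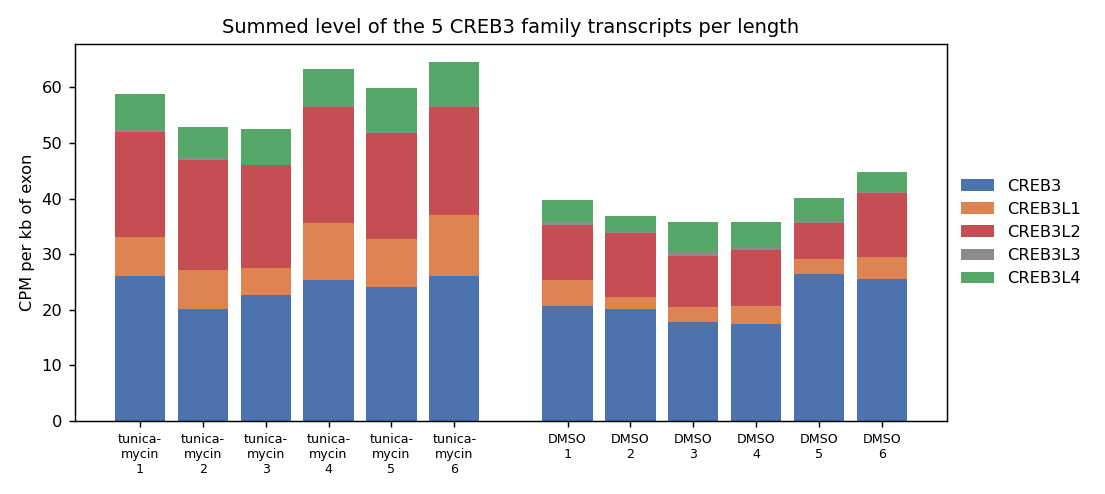
Stacked CPM per kb of exon of the 5 members in each culture, with the 6 tunicamycin cultures on the left and the 6 DMSO cultures on the right, on an axis that starts at 0. The tunicamycin stacks reach 52.5 to 64.6 and the DMSO stacks 35.7 to 44.9, and the added height lies mostly in CREB3L2 and CREB3L1.

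Whether members differed in response was tested directly on the log2 ratio of each of the 10 pairs of members, taken from log2 CPM with a prior count of 2 reads. Tunicamycin and DMSO labels were exchanged within batches, which gives 400 arrangements and a smallest possible two-sided exact permutation p of 0.005. The ratio of CREB3 to CREB3L2 was lower with tunicamycin by a log2 difference of -0.82, with a 95% interval of -1.26 to -0.39 (exact permutation p = 0.005, adjusted over 10 pairs 0.025). The ratio of CREB3 to CREB3L1 changed by -1.19, with an interval of -1.71 to -0.66 (exact permutation p = 0.01, adjusted 0.025). CREB3L3 also differed in response from CREB3L1, whose ratio to it changed by 2.09 with an interval of 0.99 to 3.20 (exact permutation p = 0.005, adjusted 0.025). The ratio of CREB3L3 to CREB3L4 changed by -1.48 with an interval of -2.40 to -0.56 (exact permutation p = 0.01, adjusted 0.025). All ratios with CREB3L3 rest on few reads, 78 over the tunicamycin cultures and 147 over the DMSO cultures.

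The 6 other pairs did not pass. The ratio of CREB3L2 to CREB3L3 changed by 1.73 with an interval of 0.62 to 2.84 and stood at the threshold itself (exact permutation p = 0.025, adjusted 0.05). The ratio of CREB3 to CREB3L4 changed by -0.57 with an interval of -1.01 to -0.14 (exact permutation p = 0.04, adjusted 0.057), and that of CREB3 to CREB3L3 by 0.90 with an interval of -0.28 to 2.09 (exact permutation p = 0.135, adjusted 0.15). Among the 3 risen members, the ratio of CREB3L1 to CREB3L2 changed by 0.36 with an interval of -0.19 to 0.91, and that of CREB3L2 to CREB3L4 by 0.25 with an interval of -0.26 to 0.76. The ratio of CREB3L1 to CREB3L4 changed by 0.61 with an interval of 0.08 to 1.14 (exact permutation p = 0.04, adjusted 0.057). Differences of the size of these bounds are therefore not excluded between the risen members. With same-numbered cultures kept as pairs and signs exchanged, the smallest possible p is 0.03125. The lowest adjusted p was 0.078, and no pair of members passed. The pairs that passed with labels exchanged within batches all stood at that smallest p. After adjustment, a pair at that p can pass only if most other pairs reach it too, so sign exchanges could hardly pass any pair.

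The genes through which the family is cleaved were examined next. Of 8 genes of the cleavage machinery and its other substrates, none passed the edgeR test, DESeq2 called 1, and the median log2 fold change was 0.26. MBTPS1, which encodes site-1 protease, averaged 199.9 ± 32.0 CPM in tunicamycin cultures and 160.9 ± 23.0 CPM in DMSO cultures (log2 fold change 0.31, edgeR adjusted p = 0.16). MBTPS2, which encodes site-2 protease, averaged 79.6 ± 20.8 CPM in tunicamycin cultures and 61.1 ± 14.4 CPM in DMSO cultures (0.38, adjusted p = 0.22). ATF6 averaged 97.3 ± 16.3 CPM in tunicamycin cultures and 71.8 ± 14.5 CPM in DMSO cultures (0.44, adjusted p = 0.074). With the replicate number as a block these 3 genes passed, at edgeR adjusted p of 0.015, 0.029 and 0.0028, in a fit that called 17.3% of all tested genes against 7.84% without the block. ATF6B, the close relative of ATF6, averaged 12.05 CPM in tunicamycin cultures and 9.74 CPM in DMSO cultures and did not pass in either fit.

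Among 7 regulators and partners of the family, 5 had enough reads to be tested, of which 3 rose and none fell. Over all tested genes, 4.56% were higher and 3.29% lower. SEL1L and SYVN1 encode the core of the ubiquitin ligase complex of ER-associated degradation, which is reported to clear uncleaved CREB3L1 and CREB3L2 proteins. SEL1L averaged 572 ± 94.7 CPM in tunicamycin cultures and 143.8 ± 23.9 CPM in DMSO cultures (log2 fold change 1.99, edgeR adjusted p = 7.8e-07). SYVN1 averaged 239.5 ± 29.5 CPM in tunicamycin cultures and 78.1 ± 8.34 CPM in DMSO cultures (1.61, adjusted p = 8.2e-08). CREBRF, a repressor that promotes the breakdown of CREB3 protein, averaged 34.4 ± 5.46 CPM in tunicamycin cultures and 24.6 ± 5.22 CPM in DMSO cultures (0.49, adjusted p = 0.0063). That call was lost without numbers 1 and 5 (log2 fold change 0.47, edgeR adjusted p = 0.053), without the batch term and in batch 1 alone.

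HCFC1, the host cell factor that CREB3 binds, did not pass the test. It averaged 145.2 ± 17.1 CPM in tunicamycin cultures and 142.0 ± 27.1 CPM in DMSO cultures (log2 fold change 0.03, edgeR adjusted p = 0.90). CREBZF, another HCFC1-binding bZIP protein, averaged 149.8 ± 48.4 CPM in tunicamycin cultures and 126.1 ± 44.5 CPM in DMSO cultures (0.25, adjusted p = 0.41) and was higher in all 6 pairs. It passed with the replicate block (edgeR adjusted p = 0.037), which made 4 of the 5 tested genes, in a fit that called 17.3% of all genes. TM4SF20, whose product turns round in the membrane to control CREB3L1 cleavage, had 7 reads over the tunicamycin cultures and 30 over the DMSO cultures and was not tested.

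Genes reported in the literature as targets of single members were examined by member. Of 19 such genes 10 could be tested, 4 rose and 1 fell, against 4.56% higher and 3.29% lower over all tested genes. Their median log2 fold change was 0.09. The 1 that fell, APOA4, had enough reads only through the DMSO cultures. Of the 3 targets of CREB3, HERPUD1 and EDEM1, which serve ER-associated degradation, rose, with log2 fold changes of 2.28 (edgeR adjusted p = 5.9e-08) and 1.43 (adjusted p = 1.1e-05). The third, ARF4, a small GTPase of the Golgi, had a log2 fold change of 0.29 and did not pass (adjusted p = 0.18). HERPUD1 and EDEM1 are also known targets of other arms of the unfolded protein response.

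None of the 3 targets of CREB3L1 passed, and their estimates were below 0 while CREB3L1 itself rose. COL1A1, a chain of type I collagen, ranged over 34.0, 82.6 and 157.9 CPM in tunicamycin cultures, against 41.8, 126.5 and 431.8 CPM in DMSO cultures. Its log2 fold change was -0.98 ± 0.49 (SE; edgeR adjusted p = 0.27). COL1A2, the other chain, had -1.33 ± 0.54 (adjusted p = 0.17), and CDKN1A, a cell cycle inhibitor, had -0.58 ± 0.32 (adjusted p = 0.31). With the replicate block all 3 fell, at edgeR adjusted p of 0.030, 0.0042 and 0.027, in a fit that called 17.3% of all tested genes. COL1A1 and COL1A2 are also 2 of the 13 mesenchymal markers, 9 of which fell with the block, so these collagen values and the marker values are not separate measurements. CDKN1A is no marker of that list, and with the mesenchymal term in the edgeR model it fell (log2 fold change -1.01, adjusted p = 0.035). In that fit the log2 fold changes of COL1A1 and COL1A2 were 0.27 and -0.02 (edgeR adjusted p of 0.51 and 0.97). The term contains these 2 collagen genes, so it cannot tell their fall from that of the markers.

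Of the 3 targets of CREB3L2, SEC24D and ATF5 rose and SEC23A did not pass. SEC24D, a cargo adaptor of COPII vesicles, averaged 192.6 ± 18.6 CPM in tunicamycin cultures and 96.2 ± 29.5 CPM in DMSO cultures, groups that did not overlap (log2 fold change 1.01, edgeR adjusted p = 0.0016). ATF5, a bZIP factor that is also induced by ATF4, averaged 66.6 ± 17.7 CPM in tunicamycin cultures and 33.6 ± 6.14 CPM in DMSO cultures (0.97, adjusted p = 0.00018). SEC23A, the COPII coat subunit that mouse chondrocytes need CREB3L2 to express, averaged 44.2 ± 7.92 CPM in tunicamycin cultures and 47.7 ± 1.62 CPM in DMSO cultures (-0.11, adjusted p = 0.63).

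Of 10 reported targets of CREB3L3, only APOA4, an intestinal and hepatic apolipoprotein, had enough reads to be tested. APOA4 had 14 reads over the tunicamycin cultures and 180 over the DMSO cultures (log2 fold change -3.73, edgeR adjusted p = 0.032), and that call was lost in 11 alternative fits. Its highest tunicamycin value was 0.288 CPM, so it had enough reads only through the DMSO cultures. A gene kept in this way can hardly show anything but a fall, so its call says little of CREB3L3 targets. FGF21, a hormone that CREB3L3 induces in mouse liver, had 8 reads over the tunicamycin cultures and 1 over the DMSO cultures. APOA4 is also one of the liver and gut markers described beside CREB3L3.

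**Figure D4:**
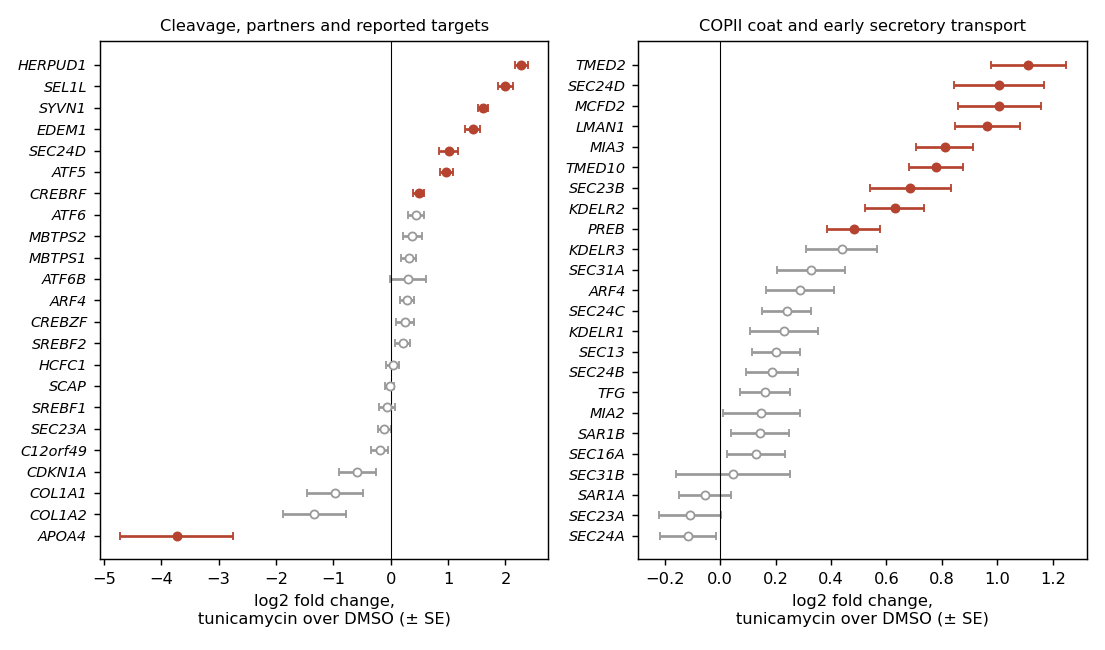
Log2 fold change (tunicamycin over DMSO, ± SE) of genes for cleavage, partners and reported targets (left) and of the COPII and early secretory genes (right), with filled red points for genes past the edgeR threshold. SEL1L, SYVN1, HERPUD1 and EDEM1 lie farthest right among the genes of the left panel, COL1A1, COL1A2 and APOA4 lie left of 0, and all red points of the right panel are right of 0.

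The early secretory pathway, whose COPII coat carries proteins from the ER to the Golgi apparatus and thereby moves the family to its proteases, had 24 of 25 listed genes tested. Of these, 9 rose and none fell, which is 37.5% called against 7.84% of all genes, with a median log2 fold change of 0.26. The largest changes were in TMED2, a cargo receptor of early secretory vesicles, at 1.11 (edgeR adjusted p = 0.00018), in SEC24D, and in MCFD2 and LMAN1, which together form a cargo receptor, at 1.01 (adjusted p = 0.00089) and 0.96 (adjusted p = 0.00017). Within the coat, SEC23B rose (0.69, adjusted p = 0.0099), while SEC23A, SEC24A, SEC24B and SEC24C did not pass. With the replicate block 11 of the 24 genes rose, with SEC24C (edgeR adjusted p = 0.049) and KDELR3, a receptor that returns escaped ER proteins, added. That fit called 17.3% of all tested genes. None of the 24 genes passed in batch 1 alone.

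The family was also set beside 18 other CREB, ATF and stress-related bZIP genes, 9 of which rose and none of which fell. That is 50% called against 7.84% of all tested genes, with a median log2 fold change of 0.45. With the replicate block 13 of the 18 rose, with ATF6, CREBZF, CREB5 and CREBL2 added, in a fit that called 17.3% of all tested genes. The largest changes were in DDIT3 at 2.13 (edgeR adjusted p = 4.1e-07), ATF3 at 1.88 (adjusted p = 0.00018), CEBPB at 1.40 (adjusted p = 0.0050) and CEBPG at 1.32 (adjusted p = 0.00011). The log2 fold change of CREB3L1 lay between those of CEBPB and CEBPG, and that of CREB3L2 lay next to that of ATF5 at 0.97. XBP1, the factor spliced by IRE1, averaged 273.3 ± 25.0 CPM in tunicamycin cultures and 162.9 ± 25.4 CPM in DMSO cultures, a log2 fold change of 0.74 (adjusted p = 0.00095) that is close to that of CREB3L4. ATF4 (0.46, adjusted p = 0.022) and NFE2L1, another ER-anchored bZIP factor (0.63, adjusted p = 0.036), rose, and these calls were lost in 7 and 12 alternative fits. CREB1, the soluble factor for which the CREB group is named, had a log2 fold change of -0.05 (adjusted p = 0.82).

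**Figure D5:**
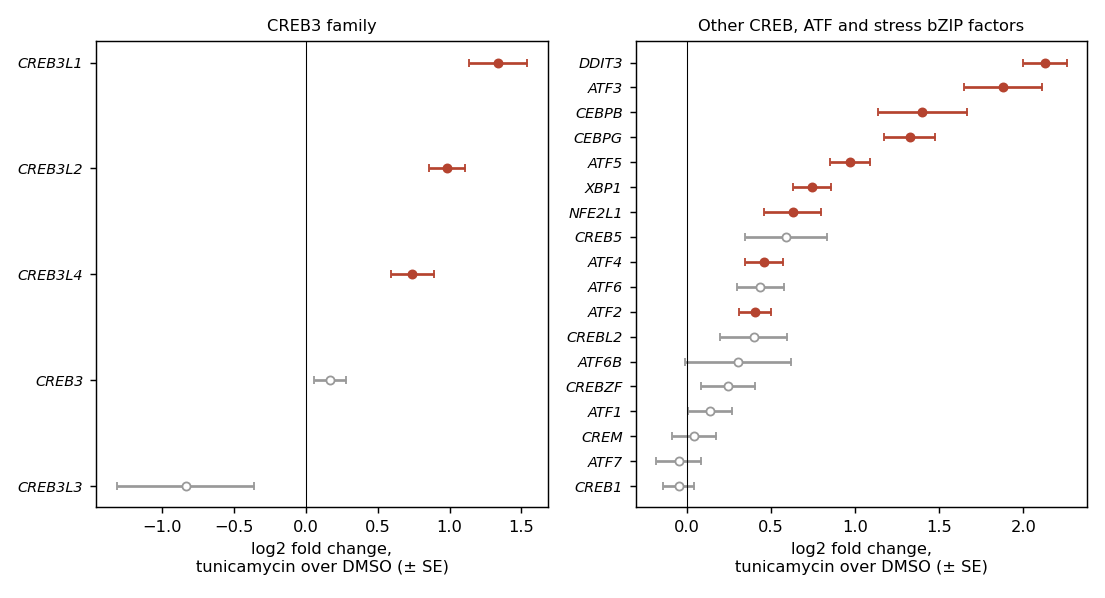
Log2 fold change (tunicamycin over DMSO, ± SE) of the 5 CREB3 family genes (left) and 18 other bZIP genes (right), with filled red points for genes past the edgeR threshold. CREB3L1, CREB3L2 and CREB3L4 are red at 1.34, 0.98 and 0.74, and in the right panel DDIT3 lies farthest right at 2.13.

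For each member, the 3 genes with the most similar pattern over the 12 cultures were taken as those with the smallest root mean square difference of centred log2 CPM. Only tested genes with a mean log2 CPM of at least 3 were ranked. Among the 3 nearest to CREB3L2 were MIA3, which loads bulky cargo such as collagen into COPII vesicles (0.169), and LYSMD3 (0.172). MIA3 averaged 174.5 ± 14.0 CPM in tunicamycin cultures and 99.7 ± 13.7 CPM in DMSO cultures. CREB3L1 lay closest to PPIB, a prolyl isomerase of the ER that acts on collagen (0.250), CDK2AP2 (0.283) and STT3A, a catalytic subunit of the oligosaccharyltransferase (0.290). CREB3L4 lay closest to BAIAP3, which acts in exocytosis and dense-core vesicle recycling (0.123), CAPS (0.194) and UNKL (0.199).

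The nearest patterns to CREB3 were those of YKT6, a SNARE protein (0.0995), CCDC9 (0.104) and EBNA1BP2 (0.104), and none of these 3 passed the edgeR test. CREB3L3, whose counts were low, had no close pattern among the 11397 genes ranked, with AMN at 0.579, GARNL3 at 0.606 and TAF4 at 0.606. Genes as low as CREB3L3 itself were not ranked, so a like pattern among them would not be seen. For scale, the SD of a member's own log2 values over the 12 cultures was 0.218 for CREB3, 0.819 for CREB3L1, 0.565 for CREB3L2, 0.839 for CREB3L3 and 0.465 for CREB3L4. The likeness is taken over 12 cultures that share the 2 groups, and it describes these cultures.

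Neighbouring genes can share reads where they overlap, and the sources used here do not give the strand setting of the counting. CREB3 overlaps the ends of TLN1 by 61 bases and of GBA2 by 139 bases on the other strand, and neither passed the edgeR test (log2 fold changes 0.23 and 0.06). CREB3L4 overlaps SLC39A1 by 651 bases and JTB by 95 bases on the other strand, and neither of these passed (0.13 each). A further gene on the other strand, AL358472.7, covers all 6830 bases of CREB3L4 and was not found by that symbol in the deposited count table. CREB3L2 overlaps AC022173.1, also not found there by symbol, by 4619 bases on the other strand. CREB3 holds the microRNA gene MIR6853 on its own strand, which had no reads. The reads of CREB3, CREB3L2 and CREB3L4 are uncertain to that extent. CREB3L1 and CREB3L3 overlap no annotated gene.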

How the data were processed

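Total RNA from 12 cultures was made into NEBNext Ultra II libraries, per the labels' protocols. The submitters' processing notes name cutadapt 4.4, HISAT2 2.1.0, featureCounts 2.0.6 and GRCh38; the annotation and strand setting used there are not given in the sources consulted. The authors deposited raw counts per gene and sample. From these, genes were filtered with filterByExpr on the design (11141 removed), scaled by TMM and fitted with edgeR 4.0.16 (R 4.3.3) as batch plus treatment, with Benjamini-Hochberg adjustment over 17137 genes and a threshold of 0.05. Intervals use a t quantile with 9 degrees of freedom, or 10 for pairs of members. CPM use TMM-scaled library sizes, and exon lengths come from GENCODE. Alternatives used DESeq2 1.42.0, limma 3.58.1, other covariates, single batches and left-out cultures. Same-numbered cultures deviated together, with correlations of 0.50 to 0.58 in batch 1 and 0.12 to 0.18 in batch 2. The highest correlation between unlike numbers was 0.27, so the pairing by number was clear in batch 1 and weak in batch 2. The block is given beside the members' and lists' results whose calls it changed. Markers of other cell types were summed per culture. The members, the 5 gene lists and the genes named were chosen with earlier results of these data known; genes named were the members, set partners and targets, up to 4 called genes per list and direction, and the 3 nearest patterns per member. A few results for single genes are not reported here. SPRING1 and G6PC1 were found under older symbols. The tests were tried on simulated counts first.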

Additional observations from a re-analysis of the deposited data

Results flagged for a closer look

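Dixon's test for a culture far from the rest of its group was applied to 61 named genes in each group, which gave 122 tests and 10 such values; chance gives about 1 in 20. None was in a CREB3 family gene. Among genes tied to the family, ATF6 stood at 129 CPM in tunicamycin culture 2, above the next culture at 99.8 CPM. ATF6B stood at 27.1 CPM in tunicamycin culture 1, where the next was 12.5 CPM. CREBZF stood at 213 CPM in DMSO culture 3, where the next was 132.8 CPM. HERPUD1 was low in tunicamycin culture 3, at 245 CPM, and CDKN1A was high in tunicamycin culture 2, at 74.7 CPM. GBA2, which overlaps CREB3, stood at 163 CPM in tunicamycin culture 3, and BAIAP3, the nearest pattern to CREB3L4, stood low at 53.2 CPM in DMSO culture 2. Among markers, CRYBA2 was low in DMSO culture 6 at 335 CPM, and FABP1 was high in DMSO culture 3 at 2.53 CPM and the only tunicamycin value above 0 in culture 1, at 0.163 CPM.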

How the results depend on the processing

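No result past its threshold changed direction under the alternatives run. The number of genes called, 1344, became 2100 with DESeq2, 2967 with the replicate block (1528 higher, 1439 lower), 886 with the mesenchymal term, 57 in batch 1 alone, 642 in batch 2 alone, 491 without numbers 1 and 5 (chosen after seeing the data), and 794 to 1404 with 1 culture left out, the lowest without tunicamycin culture 4. The number of members called stayed at 3, except 0 in batch 1 alone and 2 without numbers 1 and 5, and remained 3 with each culture left out. The cleavage list, with 0 calls, gave 1 with DESeq2, 3 with the replicate block and 0 to 1 with 1 culture left out. Reported targets, with 5, gave 8 with the block, 2 in batch 1 alone and 4 to 5 with 1 culture left out. The secretory list of 9 gave 11 with the block, 0 in batch 1 alone and 9 to 10 with 1 culture left out. The other bZIP genes, 9, gave 13, 1 and 6 to 10, and the regulators, 3, gave 4 with the block and 3 in each left-out fit. Member pairs past 0.05 were 4, and 4 to 5 with 1 culture left out, but 0 with the replicate block as sign exchanges. In the sign exchanges those 4 pairs stood at the smallest possible p, 0.03125, which the adjustment could hardly let pass. With this pairing the block changed no call of a member. No response differed between batches in a member, and of all 17137 genes none did by edgeR (169 at an unadjusted p below 0.05). Of the values of 61 single genes under the alternatives, 1293 kept their side of the threshold, 92 lost it and 18 gained it. The cause of these changes was not tested. CREB3L3 had 78 reads in tunicamycin and 147 in DMSO cultures, and 9 of its 10 listed targets had too few to test.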
